A study of Homo sapiens with 10 samples.

Results

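Immediate early genes and AP-1 factors were examined in RNA from PC-3 spheroids that received no drug or topotecan. The 10 genes were *FOS*, *FOSL1*, *FOSL2*, *JUN*, *JUNB*, *JUND*, *ATF3*, *EGR1*, *DUSP1* and *DUSP6*, out of 18144 genes listed. They were taken by symbol and were chosen by measured values, because *ATF3*, *DUSP1* and *FOS* differed between the untreated and treated libraries of day 3. Differences between treated and untreated libraries are therefore given as descriptions without a test. All 10 genes passed the filter of a mean of at least 5 CPM (read counts per 1000000), which 11332 genes passed, and *EGR1* was just inside it with a mean of 5.47 CPM.

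PC-3 is an established human prostate cancer cell line with little or no androgen receptor activity, grown here as 3D spheroids of wild-type cells. Spheroids received no drug (untreated), topotecan as 1 bolus on day 0 (conventional dosing, CONV-TOPO) or daily fractions of that dose (extended exposure, EE-TOPO), and topotecan is an inhibitor of DNA topoisomerase I. The 7 libraries were 3 of untreated spheroids (days 0, 3 and 7), 2 of CONV-TOPO and 2 of EE-TOPO (days 3 and 7), so that every condition had a single library without a replicate. All groups had culture medium exchanged on days 3 and 5, and the interval between an exchange and harvest was not given in the sources used here. The later time point is day 7 in the sample labels, whereas the study describes RNA-seq after 6 weeks of exposure. Whether the 2 are the same samples was not given in the sources used here.

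Immediate early genes are transcribed within minutes of a signal such as a growth factor, fresh serum or a stress, without new protein synthesis, and their mRNAs are short-lived. AP-1 is a dimer of a JUN protein with a FOS, JUN or ATF protein, and it binds sites in the promoters and enhancers of genes for proliferation, invasion and inflammation. The MAP kinase ERK switches on *FOS*, *EGR1* and *FOSL1*, whereas the phosphatases encoded by *DUSP1* and *DUSP6* remove phosphate from MAP kinases and so close a feedback loop. ATF3 is a factor of the ATF/CREB family that rises with DNA damage, amino acid shortage and unfolded proteins.

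The depth recovered from the steps of low values was 15.0 to 22.5 M reads per library (M, 1000000), with a median of 18.9 M. PC-3 markers were present, with *KRT8* at 624 to 1169 CPM, *VIM* at 732 to 1074 CPM and *EPCAM* at 148 to 195 CPM, and *KRT8* was higher than untreated on day 7 in both regimens (log2 ratios of 1.07 and 1.13). *TMPRSS2*, an androgen receptor target, was detected at 71.4 to 149 CPM. Of 7 markers of other cell types, *PTPRC*, *VWF*, *COL1A2*, *DCN* and *LUM* were at 1.11 CPM or less in every library, *PECAM1* was at 16.8 to 32.7 CPM and *COL1A1* at 46.7 to 83.0 CPM. In such bulk RNA, fewer cells of a type and less RNA per cell cannot be told apart. With library totals in place of TMM scaling (trimmed mean of M-values), the median of all genes moved from -0.02 to -0.28 for CONV-TOPO and from -0.03 to -0.25 for EE-TOPO on day 7 against untreated (log2). Ratios below are on the TMM scale and CPM levels are as deposited. Where 3 untreated values stand together they are of days 0, 3 and 7, and 2 values of a regimen are of days 3 and 7.

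The promoters of the genes on which the results turn are shown first, since immediate early genes are known for the signal response elements near their start sites. RefSeq promoter windows (GRCh38.p14, 250 bases before to 50 after the start) were matched for 9 of the 10 genes. The stretches run 5′ to 3′ on the gene's strand from 160 bases before the start to the base before it, and for *ATF3*, at the first of its 2 RefSeq starts, to 81 bases before the start. Capitals mark TGACGTCA (the cAMP response element), TGACATCA (the AP-1 site type of *JUN*), the shared core TGACG, the CArG box that serum response factor binds, and the TATAAA box, on either strand.
ATF3 (chr1:212565247-212565326, plus strand): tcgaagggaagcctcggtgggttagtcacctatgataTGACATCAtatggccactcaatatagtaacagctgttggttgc
DUSP1 (chr5:172771196-172771355, minus strand): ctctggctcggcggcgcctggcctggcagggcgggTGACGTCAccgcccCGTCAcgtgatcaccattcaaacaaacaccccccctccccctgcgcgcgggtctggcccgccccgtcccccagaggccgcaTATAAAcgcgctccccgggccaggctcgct
FOS (chr14:75278668-75278827, plus strand): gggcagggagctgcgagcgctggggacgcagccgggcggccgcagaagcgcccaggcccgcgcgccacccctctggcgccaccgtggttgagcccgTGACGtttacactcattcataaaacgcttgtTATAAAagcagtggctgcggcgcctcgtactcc
JUN (chr1:58784048-58784207, minus strand): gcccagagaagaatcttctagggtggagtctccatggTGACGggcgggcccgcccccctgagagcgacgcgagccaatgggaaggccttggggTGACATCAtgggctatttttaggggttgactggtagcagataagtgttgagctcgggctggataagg
EGR1 (chr5:138465319-138465478, plus strand): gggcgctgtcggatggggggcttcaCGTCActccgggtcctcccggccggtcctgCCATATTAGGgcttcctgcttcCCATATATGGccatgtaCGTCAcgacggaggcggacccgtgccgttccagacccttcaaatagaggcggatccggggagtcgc

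*DUSP1* held TGACGTCA 125 bases before its start and TATAAA 30 bases before it, and *JUND* held TGACGTCA 200 bases before its start. *FOS* and *JUNB* held TATAAA 33 and 31 bases before theirs. TGACGTCA was found in 1.85% of the 35116 RefSeq windows of this length and TATAAA in 11.5%. TGACATCA (2.61% of windows) stood 123 bases before the first RefSeq start of *ATF3* and 67 bases before the *JUN* start. That *ATF3* start lies inside the gene span as deposited, so the site is nearer to the start of that span. *EGR1* was the 1 gene with CArG boxes within its window (1.29% of windows), which began 105 and 83 bases before its start. Sites more than 250 bases before a start were not searched, so *FOS* and the other genes are not shown to lack such a box. The core TGACG, which overlaps TGACGTCA, was in 7 of the 9 genes and in 24.6% of windows. TGACTCA, the classical AP-1 site, was in *FOSL2* alone among the 9 genes (4.95% of windows), after its start. GCGTGGGCG, a site EGR1 binds, matched 0 of the 9 genes and 0.795% of windows. A match is a run of letters, and no binding was measured.

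The untreated library of day 3 held the highest untreated level of 8 of the 10 genes, and the share of all genes for which it did was not computed. Against the untreated library of day 0, 3 of the 10 genes were at least 2-fold higher, against 1.81% of all genes tested, and none was at least 2-fold lower (0.379% of all genes). *ATF3* was at 15.1, 124 and 16.6 CPM in untreated spheroids on days 0, 3 and 7, *DUSP1* at 18.8, 57.0 and 15.5 CPM, and *JUN* at 61.3, 136 and 67.2 CPM. Their ratios of day 3 to day 0 were 7.74 (95% counting interval 6.86 to 8.75), 2.86 (2.54 to 3.22) and 2.10 (1.96 to 2.25). By day 7 the same 3 genes were at least 2-fold lower than on day 3 (1.05% of all genes) and none was higher (0.812%). The values of *ATF3* and *DUSP1* in this library took part in choosing the genes, so nothing is read from these counts. *JUNB*, *JUND*, *FOSL1* and *FOSL2* had their highest untreated level on day 3 as well, by 1.35- to 1.64-fold over day 0, and so did *EGR1*, by 1.78-fold (1.275 to 2.508). *FOS* and *DUSP6* did not share this course, *FOS* with 22.5, 15.0 and 13.1 CPM on days 0, 3 and 7 and *DUSP6* with its lowest untreated level on day 3. The intervals here and below are exact 95% intervals that cover counting error alone.

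**Figure D1:**
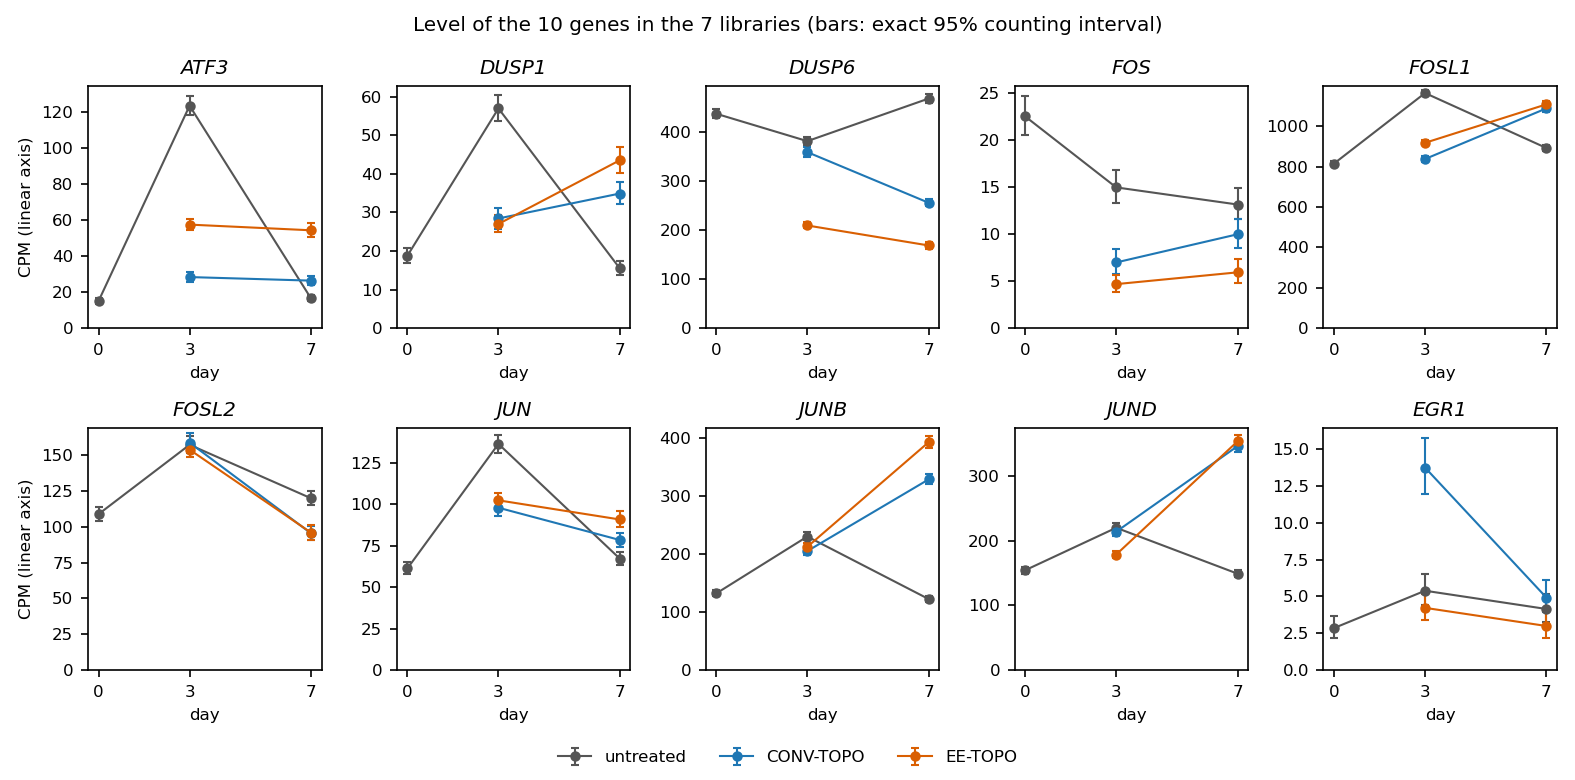
CPM of the 10 genes (vertical axes, linear, from 0) against day (horizontal axes) in untreated (grey), CONV-TOPO (blue) and EE-TOPO (orange) libraries, with 1 library per point and bars of exact 95% Poisson counting intervals. The untreated line peaks on day 3 for *ATF3* (124 CPM), *DUSP1* (57.0 CPM) and *JUN* (136 CPM), and the treated points of *DUSP6* and *FOS* lie below every untreated point.

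Some other transcripts of signalling were also highest in the untreated day 3 library. *CXCL8*, which encodes a neutrophil chemokine, was at 1600 CPM there and at 127 to 312 CPM in the other 6 libraries. *IL6*, a cytokine, was at 29.2 CPM there and at 1.65 to 14.4 CPM elsewhere, and *PLAU*, the urokinase protease, was at 2464 CPM there and at 701 to 1568 CPM elsewhere. *PPP1R15A*, a stress-induced phosphatase subunit, was at 333 CPM there and at 97.5 to 170 CPM elsewhere. The day 3 log2 ratios of the 10 genes and the day 3 medians of the lists are therefore also given against the mean of the untreated libraries of days 0 and 7, a baseline chosen after the values were seen. *CXCL8*, *IL6*, *PLAU* and *PPP1R15A* were named because both regimens were at least 2-fold below untreated day 3, which favours a peak there. *CCN2*, named in the same way, was at 123 CPM on untreated day 0 and 83.6 CPM on day 3. Of 27 other immediate early genes, 15 were higher on untreated day 3 than on day 0 and 12 were lower (median log2 ratio 0.19).

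*ATF3* was the gene with the widest range, 8.20-fold between its lowest and its highest library. Its level was 28.4 CPM in CONV-TOPO and 57.5 CPM in EE-TOPO on day 3, and 26.4 and 54.4 CPM on day 7. All 4 treated libraries lay above the untreated libraries of days 0 and 7 and below that of day 3. Against untreated day 3, *ATF3* was 4.50-fold lower in CONV-TOPO (4.06 to 4.99) and 2.26-fold lower in EE-TOPO (2.11 to 2.42). Against the mean of untreated days 0 and 7, the direction on day 3 turned, to a log2 ratio of 0.76 in CONV-TOPO and 1.76 in EE-TOPO. On day 7 it was 1.89-fold higher in CONV-TOPO (1.64 to 2.20) and 3.83-fold higher in EE-TOPO (3.36 to 4.38) than in untreated spheroids of that day. Against the mean of all 3 untreated libraries, the day 7 log2 ratio turned to -0.74 in CONV-TOPO and was 0.27 in EE-TOPO. *ATF3* lies on chr1:212565334-212620778 (hg38, plus strand) and at 55445 bases has the longest span of the 10 genes.

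*DUSP1*, the nuclear phosphatase that acts on p38, JNK and ERK, followed a like course. Its level was 28.4 CPM in CONV-TOPO and 27.0 CPM in EE-TOPO on day 3, and 34.9 and 43.5 CPM on day 7. The treated libraries were again between untreated day 3 and the other untreated libraries. On day 3, *DUSP1* was at 0.484 of untreated in CONV-TOPO (0.432 to 0.542) and at 0.452 in EE-TOPO (0.409 to 0.4999). Against untreated days 0 and 7, it turned to a log2 ratio of 0.64 and 0.55. On day 7 it was 2.69-fold higher in CONV-TOPO (2.33 to 3.10) and 3.29-fold higher in EE-TOPO (2.86 to 3.78). *DUSP1* lies on chr5:172768096-172771196 (minus strand).

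*DUSP6*, the cytoplasmic phosphatase of ERK and a common readout of ERK output, differed from *DUSP1*. It was at 438, 382 and 469 CPM in untreated spheroids on days 0, 3 and 7, at 359 CPM (day 3) and 256 CPM (day 7) in CONV-TOPO, and in EE-TOPO at 209 and 169 CPM. Every treated library was below every untreated one, and each EE-TOPO library was below each CONV-TOPO library. The ratio to untreated on day 3 was 0.912 in CONV-TOPO (0.880 to 0.945) and 0.523 in EE-TOPO (0.504 to 0.543). On day 7 it was 0.651 (0.628 to 0.676) and 0.421 (0.403 to 0.440). Without the untreated day 3 library the day 3 log2 ratios were -0.41 and -1.22, in the same direction. *DUSP6* lies on chr12:89347237-89352502 (minus strand).

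*FOS*, the founding FOS gene, was low in all libraries, at 22.5, 15.0 and 13.1 CPM in untreated spheroids, 6.97 and 9.97 CPM in CONV-TOPO on days 3 and 7, and 4.67 and 5.92 CPM in EE-TOPO. Estimated reads were 89 to 449 per library, so its counting error was larger than that of *DUSP6*. The treated libraries were all below the untreated ones, and EE-TOPO was below CONV-TOPO on each day. On day 3 it was 2.21-fold lower in CONV-TOPO (1.76 to 2.79) and 3.36-fold lower in EE-TOPO (2.68 to 4.24). On day 7 the ratio to untreated was 0.905 in CONV-TOPO, with an interval that held 1 (0.739 to 1.11), and 0.528 in EE-TOPO (0.409 to 0.675). Without the untreated day 3 library the day 3 log2 ratios were -1.45 and -2.05. On the TMM scale, *FOS* and *DUSP6* were the 2 of the 10 genes with all 4 treated libraries below the 3 untreated ones, against 6.47% of all genes tested, and none had all 4 above (4.46%). *FOS* was among the genes whose day 3 values chose the set, so nothing is read from that count. *FOS* lies on chr14:75278828-75282231 (plus strand).

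*FOSL1*, which encodes FRA1, made up most FOS family mRNA. Per kb of transcript, its level was 479 to 684 CPM per kb, which was 94.6% to 97.3% of the summed level of *FOS*, *FOSB*, *FOSL1* and *FOSL2*. *FOS* made up 0.393% to 2.11%, *FOSL2* 2.14% to 4.55%, and *FOSB*, at 1.28 to 3.19 CPM, at most 0.134%. *FOSL1* was at 815, 1164 and 892 CPM in untreated spheroids on days 0, 3 and 7, at 837 and 1088 CPM in CONV-TOPO and at 918 and 1108 CPM in EE-TOPO. Against untreated it was lower on day 3, with ratios of 0.697 and 0.751, and higher on day 7, with ratios of 1.46 and 1.45 for CONV-TOPO and EE-TOPO. Without the untreated day 3 library, the day 3 log2 ratios were near 0, at -0.11 and 0.00. *FOSL2*, which encodes FRA2, was at 109, 157 and 120 CPM untreated, 159 and 95.5 CPM in CONV-TOPO and 154 and 96.0 CPM in EE-TOPO, and its ratios to untreated of the same day on the TMM scale were 0.932 to 0.978 in all 4 treated libraries. Without the untreated day 3 library, its day 3 log2 ratios turned to 0.39 and 0.32. *FOSL1* lies on chr11:65892049-65900527 (minus strand) and *FOSL2* on chr2:28392858-28417318 (plus strand).

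**Figure D2:**
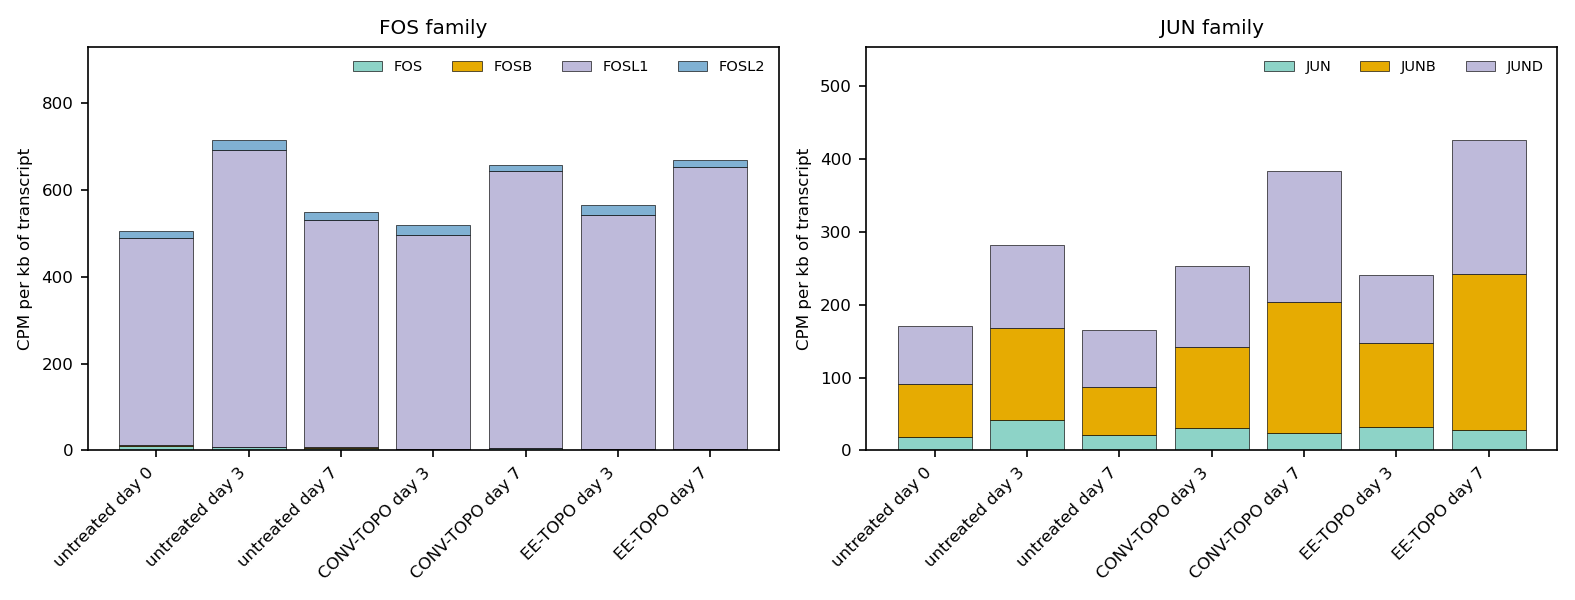
CPM per kb of transcript (vertical axes) stacked for the FOS family (left) and the JUN family (right) in each of the 7 libraries (horizontal axes), 1 library per bar with no error bar. *FOSL1* fills 94.6% to 97.3% of each FOS family bar, and the JUN family bars are tallest for both regimens on day 7, at 383 and 426 CPM per kb.

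The JUN family was carried by *JUNB* and *JUND*. Its summed level was 171, 282 and 165 CPM per kb in untreated spheroids on days 0, 3 and 7, 253 and 383 in CONV-TOPO and 240 and 426 in EE-TOPO. *JUN* supplied 11.0% to 14.9% of the family in untreated and day 3 libraries and 6.28% and 6.54% in CONV-TOPO and EE-TOPO on day 7. *JUNB*, a weaker activator that can oppose JUN, was at 132, 231 and 123 CPM untreated, 205 and 329 CPM in CONV-TOPO and 213 and 393 CPM in EE-TOPO. *JUND*, the member most expressed in resting cells, was at 154, 220 and 149 CPM untreated, 214 and 346 CPM in CONV-TOPO and 178 and 353 CPM in EE-TOPO. Both were below untreated on day 3 and well above it on day 7. On day 7 the ratios of *JUNB* were 3.20 (3.05 to 3.36) and 3.75 (3.58 to 3.94), and those of *JUND* were 2.77 (2.65 to 2.90) and 2.78 (2.65 to 2.90). *JUN* was at 97.8 and 78.4 CPM in CONV-TOPO and 102 and 90.8 CPM in EE-TOPO, with ratios to untreated of 0.696 and 0.715 on day 3 and 1.39 and 1.58 on day 7. Against untreated days 0 and 7, the day 3 log2 ratios were positive for *JUN* (0.53 and 0.57), *JUNB* (0.61 and 0.63) and *JUND* (0.42 and 0.13).

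*JUN* lies on chr1:58780791-58784048 (minus strand), *JUNB* on chr19:12791486-12793316 (plus strand) and *JUND* on chr19:18279694-18281623 (minus strand), each with 1 exon. All of *JUNB* lies within *HOOK2* on the other strand, which was at 33.5 to 41.9 CPM in the 7 libraries, and strand use in the counting was not given in the sources used here. Reads of such pairs cannot be told apart without strand. *FOSL2*, *DUSP1* and *DUSP6* overlap long noncoding RNAs that were not among the listed genes.

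*EGR1*, a zinc finger factor that ERK and serum switch on, was the lowest of the 10 genes. It was at 2.86, 5.39 and 4.15 CPM in untreated spheroids on days 0, 3 and 7, at 13.8 and 4.92 CPM in CONV-TOPO and at 4.23 and 2.99 CPM in EE-TOPO, from 45 to 209 estimated reads. Its mean over the 6 libraries other than CONV-TOPO day 3 was 4.09 CPM, so it passed the filter through that library alone. The 1 library that stood out was CONV-TOPO on day 3. It was 2.47-fold higher there than in untreated spheroids (1.94 to 3.17), and its log2 ratio to untreated days 0 and 7 was 1.90. EE-TOPO was at 0.747 of untreated on day 3 (0.559 to 0.998) and at 0.844 on day 7 (0.572 to 1.23), and against untreated days 0 and 7 its day 3 log2 ratio turned to 0.18. *EGR1* lies on chr5:138465479-138469304 (plus strand).

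On day 3, *EGR1* was the 1 gene of 10 at least 2-fold higher in CONV-TOPO than untreated (0.556% of all genes), and *FOS*, *ATF3* and *DUSP1* were at least 2-fold lower (0.432%). In EE-TOPO none of the 10 was at least 2-fold higher (1.28%) and the same 3 genes were lower (0.679%). The contrast was used to choose the genes, both counts share 1 untreated library, and *EGR1* passed the filter through CONV-TOPO day 3, so nothing is read from them. Against untreated days 0 and 7, *EGR1* was at least 2-fold higher (1.4% of all genes) and *FOS* at least 2-fold lower (0.327%) in CONV-TOPO. In EE-TOPO, *ATF3* was higher (2.06%) and *FOS* and *DUSP6* were lower (0.653%). The treated libraries are those that chose the genes, so these counts are descriptions as well.

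**Figure D3:**
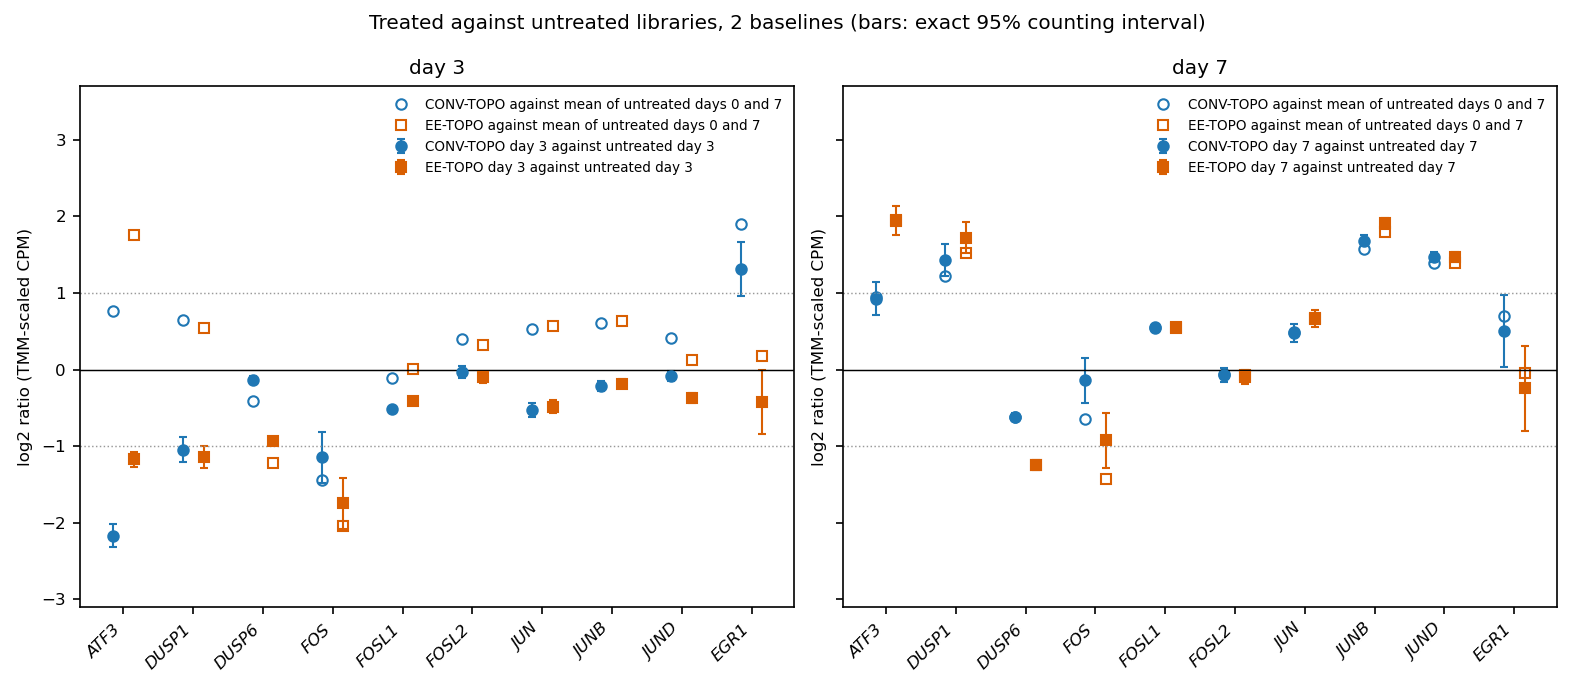
log2 ratio of TMM-scaled CPM (vertical axis) for the 10 genes (horizontal axis) in CONV-TOPO (blue circles) and EE-TOPO (orange squares) on day 3 (left) and day 7 (right), against untreated of the same day (filled, bars of exact 95% counting intervals) and against the mean of untreated days 0 and 7 (open, no bars). On day 3 the open and filled symbols of *ATF3* and *DUSP1* lie on opposite sides of 0, while those of *FOS* and *DUSP6* lie on the same side.

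On day 7, *JUNB*, *JUND* and *DUSP1* were at least 2-fold higher in CONV-TOPO than untreated (8.45% of all genes) and none of the 10 was at least 2-fold lower (9.45%). In EE-TOPO, *JUNB*, *JUND*, *ATF3* and *DUSP1* were at least 2-fold higher (9.28%) and *DUSP6* was lower (10.8%). Gene span moved with these ratios. The 2401 tested genes with a span under 10000 bases had a median log2 ratio of 0.60 in CONV-TOPO and 0.59 in EE-TOPO on day 7, and 24.3% and 25.2% of them were at least 2-fold higher. On day 3 their medians were -0.11 and -0.24. *FOS*, *JUN*, *JUNB*, *JUND*, *EGR1* and *DUSP1* were 6 of the 1079 genes with a span under 5000 bases, whose medians on day 7 were 0.80 and 0.78. After a smooth trend with span was removed, the day 7 log2 ratios of *JUNB* were 0.71 and 0.96, those of *JUND* 0.52 and 0.55, and those of *DUSP1* 0.63 and 0.95, all under 2-fold. *ATF3* stood at 1.17 and 2.18 after that step, and *DUSP6* at -1.23 and -1.83. *JUN* turned to -0.31 and -0.11, and *FOSL1* was at 0.09 and 0.07. With a joint trend of span, transcript length and GC content removed, *DUSP1* was at 0.84 and 1.10, *ATF3* at 0.69 and 1.73, and *DUSP6* at -0.65 and -1.31. The part of gene span in the day 7 values was not tested.

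**Figure D4:**
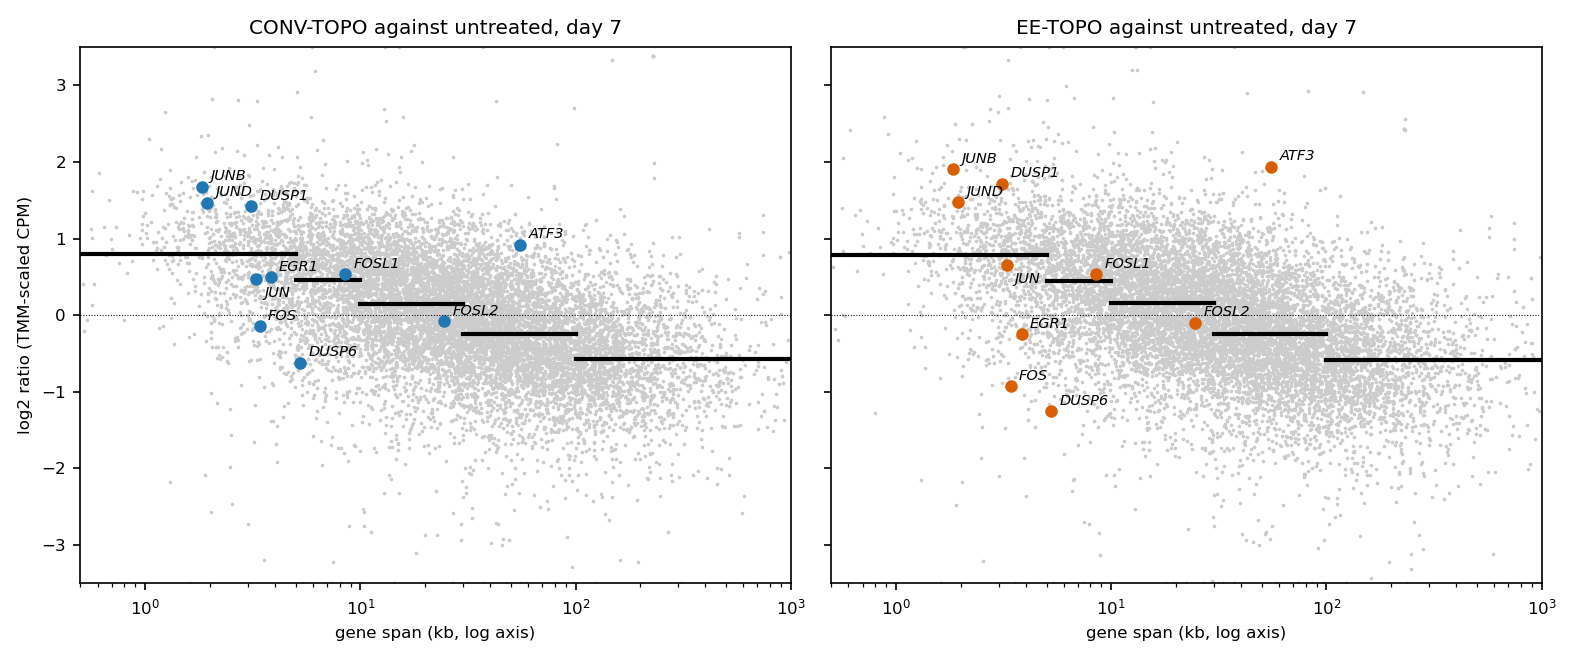
log2 ratio of TMM-scaled CPM to untreated on day 7 (vertical axis, values beyond 3.5 drawn at the edge) against gene span in kb (horizontal axis, log scale) for the 11332 tested genes (grey dots) in CONV-TOPO (left) and EE-TOPO (right). Black bars are medians of genes within a range of spans, which fall from 0.80 and 0.78 under 5 kb to -0.57 and -0.58 from 100 kb on, and coloured dots are the 10 genes.

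Within each regimen, the counts of the 10 genes past 2-fold between the days were near the shares of all genes. They are given as descriptions. From day 3 to day 7, none was at least 2-fold higher in CONV-TOPO (7.32% of all genes) and *EGR1* was lower (8.53%), whereas in EE-TOPO *JUNB* and *JUND* were higher (10.1%) and none was lower (11.3%). Nothing is read from the fall of *EGR1*, which passed the filter through CONV-TOPO day 3. *ATF3* stayed near its day 3 level, with ratios of day 7 to day 3 of 1.13 in CONV-TOPO (0.989 to 1.30) and 1.15 in EE-TOPO (1.05 to 1.25).

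The comparison of the 2 regimens asks whether the same drug given as daily fractions differs from a bolus, and its ratios do not use the untreated libraries. In the study's methods the daily fractions add up to the bolus over a week. By day 3 the total given was therefore smaller in EE-TOPO, and schedule and total dose cannot be told apart on that day. *ATF3* was 1.99-fold higher in EE-TOPO than in CONV-TOPO on day 3 (1.79 to 2.23) and 2.02-fold higher on day 7 (1.80 to 2.28). *DUSP6* was lower on both days, with ratios of 0.573 (0.551 to 0.596) and 0.647 (0.615 to 0.679), and so was *FOS*, with 0.658 (0.498 to 0.871) and 0.583 (0.445 to 0.759). *EGR1* was 0.302 on day 3 (0.234 to 0.387) and 0.597 on day 7 (0.405 to 0.869). It passed the filter through CONV-TOPO day 3, so nothing is read from its day 3 ratio or its place in the counts below. *DUSP1* was at 0.934 on day 3, with an interval that held 1 (0.824 to 1.06), and at 1.22 on day 7 (1.09 to 1.37). The JUN genes, *FOSL1* and *FOSL2* were within 1.22-fold on both days, with ratios from 0.821 for *JUND* on day 3 to 1.17 for *JUNB* on day 7. Counts past 2-fold were 0 higher (0.282% of all genes) and 1 lower (0.247%) on day 3 and 1 higher (0.662%) and 0 lower (0.538%) on day 7, and *ATF3* lay at the threshold on both days.

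**Figure D5:**
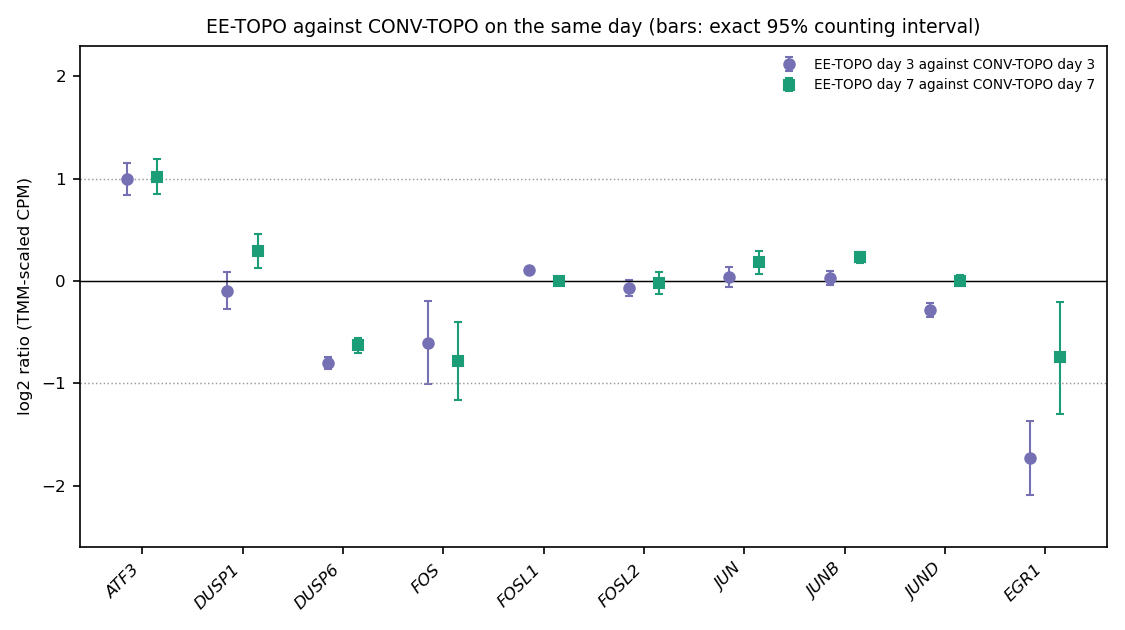
log2 ratio of EE-TOPO to CONV-TOPO on the TMM scale (vertical axis) for the 10 genes (horizontal axis) on day 3 (purple circles) and day 7 (green squares), with bars of exact 95% counting intervals from 1 library each. *ATF3* lies near 1 on both days, and *DUSP6*, *FOS* and *EGR1* lie below 0 on both.

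With the days as the repeats, EE-TOPO was tested against CONV-TOPO by limma on the 6 libraries of days 3 and 7, with day as a term and 2 residual degrees of freedom. None of the 11332 genes passed an adjusted p of 0.05 (0% of all genes), and 57 had an unadjusted p under 0.05 (0.503%). *DUSP6* (log2 difference -0.71, SE 0.24) and *EGR1* (-1.05, SE 0.35) were among those 57, and the adjusted p of both was 1.00 by limma. *ATF3* had a log2 difference of 0.98 with an SE of 0.77, and *FOS* had -0.60 with an SE of 0.33, both with an adjusted p of 1.00 by limma. Their errors held the change of the untreated libraries between days 3 and 7. In the 4 treated libraries alone, with 1 residual degree of freedom, limma called 138 genes (1.22%), among them *ATF3* (SE 0.14, adjusted p = 0.00032), *DUSP6* (SE 0.10, adjusted p = 0.00046) and *EGR1* (SE 0.26, adjusted p = 0.045), and not *FOS* (adjusted p = 0.28). With 1 library per condition, these errors reflect variation between days and not the spread between cultures. In limma each error is also drawn toward a trend over all genes. With 1 residual degree of freedom, the errors from the 4 treated libraries rested mostly on that trend and little on each gene's own variation. Since *EGR1* passed the filter through CONV-TOPO day 3, a library of this contrast, nothing is read from its p in either fit.

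Genes that act with the 10 were described as lists, with medians beside that of all genes and no test. Of 27 other immediate early genes, 2 were at least 2-fold lower in CONV-TOPO and 5 in EE-TOPO on day 3 against untreated, and 0 and 1 were higher, with medians of -0.19 and -0.56 against -0.03 and -0.06 for all genes. On day 7, 3 and 6 of them were at least 2-fold higher and 2 and 1 lower, with medians of 0.09 and 0.47 against -0.02 and -0.03. Against untreated days 0 and 7, their day 3 medians were 0.09 and -0.18, against -0.03 and -0.05 for all genes. The shares of all genes past 2-fold on each day, given above for the 10 genes, are the background of the list counts as well. *CCN2*, a matricellular protein gene driven by YAP and SRF, was lower in all 4 treated libraries, at 123, 83.6 and 79.3 CPM untreated, 34.2 and 21.1 CPM in CONV-TOPO and 34.3 and 24.5 CPM in EE-TOPO. *NR4A1*, an orphan nuclear receptor gene, and *ZFP36*, which encodes a factor that destabilises AU-rich mRNAs, were higher on day 7, by log2 ratios of 1.10 and 1.44 and of 1.08 and 1.08.

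ERK output genes, such as those for Sprouty proteins and PEA3 factors, were compared because *DUSP6* belongs with them. On day 7, 9 of 11 had a log2 ratio below 0 in both regimens, 0 and 3 were at least 2-fold lower (9.45% and 10.8% of all genes), and the medians were -0.32 and -0.44 against -0.02 and -0.03 for all genes. The other 2, *ETV4*, which encodes a PEA3 factor, and *CCND1*, were above 0 in both regimens. The share of all genes below 0 was not computed, and the part of gene span in these values was not tested. On day 3, 7 and 6 of the 11 were below 0, with medians of -0.15 and -0.27 against -0.03 and -0.06 for all genes and none past 2-fold, and the medians against untreated days 0 and 7 were -0.20 and -0.23. *SPRY1* was at 119, 87.7 and 85.1 CPM untreated, 65.3 and 52.5 CPM in CONV-TOPO and 60.5 and 33.0 CPM in EE-TOPO. *PHLDA1* was at 1229 CPM in untreated day 3 and at 583 to 754 CPM in the other libraries, so it shared the untreated peak. Of 9 other dual-specificity phosphatases, 0 and 2 were at least 2-fold higher on day 7 (8.45% and 9.28% of all genes) and none lower. Of 18 MAP kinases and nuclear substrates, 1 and 2 were at least 2-fold lower on day 7 (9.45% and 10.8% of all genes), *MRTFB* in both, and its span was 195719 bases.

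The 9 genes of the ATF4 arm, the amino acid and unfolded protein response with which ATF3 acts, had the highest median of the lists on day 7. All 9 had a log2 ratio above 0 in both regimens, 5 and 7 were at least 2-fold higher (8.45% and 9.28% of all genes), and the medians were 1.36 and 1.40 against -0.02 and -0.03 for all genes. *DDIT3*, which encodes CHOP, was at 9.17, 51.1 and 19.7 CPM untreated, 56.3 and 51.5 CPM in CONV-TOPO and 39.2 and 57.4 CPM in EE-TOPO. *CHAC1*, *DDIT4* and *CEBPB* had log2 ratios of 1.36 to 2.29 on day 7. Untreated day 3 was also above untreated day 0 for all 9 genes, with a median of 0.97, and on day 3 the treated medians against it were -0.07 and -0.30, and against untreated days 0 and 7 they turned to 0.87 and 0.87. *DDIT3*, *CHAC1*, *DDIT4* and *CEBPB* have spans of 2110 to 3931 bases, in the range where all genes leaned higher on day 7.

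Among 15 tested genes with known AP-1 sites, 1 was at least 2-fold higher in each regimen on day 3 (0.556% and 1.28% of all genes) and 4 and 3 were lower (0.432% and 0.679%). On day 7, 3 and 6 were higher (8.45% and 9.28%) and 1 was lower in each (9.45% and 10.8%). *MMP10* was among the 6, at 10.3 CPM in EE-TOPO on day 7 and 2.10 to 7.43 CPM elsewhere. It passed the filter through that library alone, so nothing is read from its place in the count. Their medians on day 3 were -0.03 and -0.12 against -0.03 and -0.06 for all genes, and turned to 0.33 and 0.33 against untreated days 0 and 7. On day 7 they were -0.14 and 0.69 against -0.02 and -0.03. *HMOX1*, heme oxygenase 1, was above all 3 untreated libraries (12.8 to 13.8 CPM) in each treated library, with 34.1 and 64.2 CPM in CONV-TOPO and 36.9 and 104 CPM in EE-TOPO. *MT2A*, a metallothionein, was at 40.0 to 59.8 CPM untreated, 63.0 and 102 CPM in CONV-TOPO and 91.0 and 175 CPM in EE-TOPO. *TIMP1*, an inhibitor of matrix proteases, had day 7 log2 ratios of 1.42 and 1.55, and it and *MT2A* also have spans under 5000 bases. *IL6* was higher in EE-TOPO than in CONV-TOPO on both days, at 13.4 against 3.49 CPM and 14.4 against 3.71 CPM, the same order as *ATF3*. Of 7 other AP-1 family genes, *JDP2*, a repressor that pairs with JUN proteins, was at 2.40 to 4.75 CPM untreated and at 5.90 and 9.38 CPM in CONV-TOPO and EE-TOPO on day 7. It was under 5 CPM in every untreated library and passed the filter through treated libraries, so nothing is read from its rise.

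Across the 7 libraries, the pairs of the 10 genes most alike in log2 level were *JUNB* and *JUND* (Pearson r = 0.97) and *ATF3* and *JUN* (r = 0.95), and *FOS* and *DUSP6* had r = 0.82. The 6 genes most like the mean standardised profile of *ATF3*, *DUSP1* and *FOS* were *SNW1*, *KRTAP2-3*, *PPP6C*, *TEAD4*, *MCM7* and *PBDC1*, with r of 0.956 to 0.976. Each of the 6 had its highest level in untreated day 3, such as *MCM7* with 217 CPM against 138 to 169 CPM elsewhere, and *KRTAP2-3* with 35.4 CPM against 2.99 to 15.4 CPM. The mean profile is itself highest in untreated day 3, so that peak followed from the ranking. With r = -0.34 to *ATF3* and r = -0.16 to *DUSP1*, *FOS* did not share this profile. These are descriptions over 7 libraries, and no p is given.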

How the data were processed

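RNA-seq of 7 PC-3 spheroid libraries was used, without the day 1 samples. The authors aligned reads with STAR (hg38) and deposited 1 CPM table of 18144 genes, each value with 0.0001 CPM added, which was subtracted. Per the labels, Partek was used, and strand use and annotation were not given in the sources used here. Low values lay on steps of 1 read, which gave the depth, but only 87.7% to 89.4% of values under 2 CPM were whole within 0.02 reads, so no count test was run. Ratios of single libraries used TMM scaling, computed on the CPM, with exact 95% conditional binomial intervals of estimated reads (Poisson for CPM). A gene at 0 would have been set to 3 reads. Genes with a mean of at least 5 CPM were tested.

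EE-TOPO against CONV-TOPO was fitted with limma 3.58.1 (R 4.3.3), with terms for treatment and day, on TMM-scaled CPM after adding 1 CPM and taking log2, a mean-variance trend and Benjamini-Hochberg adjustment over all genes tested at 0.05. The fit and scaling were tested on simulated data. The genes and lists were chosen with earlier results of these data known. From each list, genes past 2-fold in both regimens in 1 direction against untreated of the same day were named. These were at most 4 per list and day. *FOSB* and the 6 genes most like the mean profile of *ATF3*, *DUSP1* and *FOS* were named too. *SPRY1*, *PHLDA1*, *IL6* in the regimen comparison and the markers were named after their values were seen. Transcript length and GC content came from GENCODE 44 (98.2% of tested genes), and gene positions are those deposited, whose ends lie 1 base past the annotated ends of *JUN*, *JUNB* and *JUND*. Promoters came from RefSeq (GRCh38.p14). Alternatives covered scaling, filter, pseudocount, fold, baseline, gene span, the libraries in the fit and the day term. A baseline of untreated days 0 and 7, for the 10 genes and the lists, and the removal of a joint trend (gene span, transcript length, GC content) were added after seeing the data. Other tools were matplotlib 3.10.9, scipy 1.17.1, pandas 2.3.3 and numpy 2.4.6 in Python 3.11.15.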

Additional observations from a re-analysis of the deposited data

Results flagged for a closer look

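In 6 genes, both regimens lay on 1 side of untreated on day 3 and on the other side on day 7, each beyond counting error. The mean log2 ratio over both regimens was lower than untreated on day 3 and higher on day 7 in each, and it rose by 3.10 for *ATF3*, 2.67 for *DUSP1*, 1.99 for *JUNB*, 1.70 for *JUND*, 1.07 for *JUN* and 1.01 for *FOSL1*. The difference between the days was not tested. How many of all genes met the same rule was not counted, so nothing is read from the number 6. The day 3 values are those of the contrast that chose the genes and rest on the untreated day 3 library. Against untreated days 0 and 7, the day 3 log2 ratios of *ATF3*, *DUSP1*, *JUNB*, *JUND* and *JUN* were positive in both regimens, and those of *FOSL1* were -0.11 and 0.00, so with that baseline the turn was not present. Each of the 6 genes had its highest untreated level on day 3, and *JUNB*, *JUND*, *JUN* and *DUSP1* have spans under 5000 bases.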

How the results depend on the processing

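Each condition had 1 library, so intervals cover counting error alone and cultures of 1 condition could differ by more. The cause of the changes below was not tested. Of 150 counts recomputed, 125 stayed within 1.5 times and 25 moved. Among the 125 are counts of library pairs with a looser filter or none. Those could not move, since all 10 genes passed the main filter, so they say nothing about stability. Against untreated days 0 and 7, the day 3 log2 ratios reversed to 0.76 (*ATF3*) and 0.64 (*DUSP1*) in CONV-TOPO and 1.76 and 0.55 in EE-TOPO, and *ATF3* in EE-TOPO reversed to 0.076 against the mean of 3 untreated libraries. With that mean, *ATF3* in CONV-TOPO on day 7 was at -0.74. With either baseline, genes at least 2-fold lower in CONV-TOPO on day 3 fell from 3 to 1, and lower in EE-TOPO on day 7 rose from 1 to 2. Without untreated day 3, 1 was higher in EE-TOPO on day 3 in place of 0, and with the mean of 3 untreated libraries, 2 in place of 4 were higher in EE-TOPO on day 7. With the span trend removed, genes higher on day 7 fell to 1 in each regimen and lower genes rose to 1 in CONV-TOPO and 3 in EE-TOPO. With the joint trend removed, 0 (CONV-TOPO) and 2 (EE-TOPO) were higher on day 7 and 2 lower in EE-TOPO, and EE-TOPO against CONV-TOPO on day 3 had 1 higher. Library totals gave 2 lower in EE-TOPO on day 7 and 1 higher in EE-TOPO than CONV-TOPO on day 3, and 1 CPM added gave 0 higher on day 7. At 1.5-fold, counts were 1 lower in CONV-TOPO and 2 lower in EE-TOPO on day 7, 1 higher and 3 lower on day 3 and 3 lower on day 7 in EE-TOPO against CONV-TOPO, and 5 higher and 1 lower in untreated day 3 against day 0. The limma count of 0 became 138 in the 4 treated libraries alone, and stayed 0 under the 5 other fits with a test.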
